A study of Mus musculus with 38 samples.

Results

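Potassium channel genes outside the KCNQ family were described in RNA from the anterodorsal division of the mouse bed nucleus of the stria terminalis, abbreviated adBNST. The set was every gene symbol beginning with Kcn, other than the Kcnq genes, whose level averaged 0.5 on the counts-per-million scale (CPM) or more over the 38 libraries. Of 92 symbols that matched by name, 78 reached that level and 14 did not, out of 25230 genes in the table. The lowest genes that entered were Kcne4 at 0.608 CPM, Kcnk5 at 0.636 CPM and Kcnn4 at 0.701 CPM. The highest that did not enter were Kcng4 at 0.483 CPM, Kcnk7 at 0.36 CPM and Kcne3 at 0.335 CPM. All 78 members passed the low-count filter of the test, and 16309 of all genes did. They comprised 62 pore-forming subunits, 14 auxiliary subunits and 2 antisense RNAs, Kcnd3os and Kcnmb4os2.

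The mice were wild type (WT). Stressed mice had gone through 6 weeks of chronic variable mild stress, a changing series of mild stressors such as altered lighting, wet bedding, cold, swimming, restraint and isolation, and control mice had not. The 4 groups were female control (FC, n = 10 libraries), female stressed (FS, n = 9), male control (MC, n = 10) and male stressed (MS, n = 9). No age or strain was given, and nothing said that each library came from a separate mouse, so that the p-values measure the spread between these libraries. Libraries held 9064136 to 84842828 counts (median 27323060), so that 1 count was worth 0.0118 to 0.11 CPM, and 75 of the 78 members had a count in every library.

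The tissue was checked against cell type markers. Summed markers of GABA neurons, the main neurons of this nucleus, ran from 1507 to 2617 CPM over the libraries, and those of cortical glutamate neurons from 6.1 to 39 CPM. A list of markers of BNST populations summed to 535 to 1442 CPM (median 753), and a list of striatal markers to 570 to 4099 (1683). The lists hold different genes, so that their sums give no share of a tissue. The part of striatal RNA in the members' levels was not tested. Summed oligodendrocyte markers varied from 4749 to 26330 CPM, and choroid plexus markers reached 3330 CPM in 1 library, male stressed number 5 (MS5), against at most 225 CPM in the others. Libraries carry numbers from 1 within each group, whose meaning the labels do not give. Libraries numbered up to 5 (n = 20, median 20946782 counts) and those numbered 6 and above (n = 18, median 31728454) stood apart in many genes, and values within each of these number sets are given beside the results they touch.

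Potassium channels let K+ leave the cell and so set the resting potential, end each action potential and space out firing. Voltage-gated (Kv) channels open on depolarisation, inward rectifiers (Kir) and 2-pore (K2P) channels carry current near rest, and SK, BK and Slack-type channels open when calcium or sodium rises inside the cell. Auxiliary subunits carry no current and adjust the gating, trafficking and membrane level of the pore subunits. In the bed nucleus these currents shape how neurons that serve anxiety-related behaviour respond to input.

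What the pore-forming members share is the selectivity filter, the short loop that lets K+ through and keeps Na+ out. In the coding sequence it was looked for in frame as a codon for threonine or serine, any codon, a glycine codon, a codon for tyrosine, phenylalanine or leucine, and another glycine codon. All 62 pore-forming members held it, none of the 14 auxiliary subunits did, and 5.42% of 21562 coding genes held it, so that it marks no gene as a channel by itself. It was found at 2 or more places in all 10 K2P members, whose subunits have a pair of pore loops. The match is a description of letters: in Kcna6 and Kcnh2 a second match also occurred. One stretch of 45 coding bases is shown for a member of each of 9 families, with the 5 filter codons in capitals, so that the loop can be compared across families (GENCODE M21, build GRCm38; strand as given).
Kcna1 (Kv1, chr6:126642213-126642257, minus strand): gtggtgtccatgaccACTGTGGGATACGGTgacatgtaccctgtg
Kcnc1 (Kv3, chr7:46427958-46428002, plus strand): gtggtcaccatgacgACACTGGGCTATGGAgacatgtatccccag
Kcnd2 (Kv4, plus strand, chr6:21217391-21714156 with an intron between): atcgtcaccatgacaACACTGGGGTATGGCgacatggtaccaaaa
Kcnf1 (Kv5, electrically silent, chr12:17175046-17175090, minus strand): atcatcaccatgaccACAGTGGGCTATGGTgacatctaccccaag
Kcnh3 (ELK, chr15:99232914-99232958, plus strand): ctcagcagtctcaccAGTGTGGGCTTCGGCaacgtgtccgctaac
Kcnk1 (K2P, the first loop, plus strand, chr8:125995793-126025034 with an intron between): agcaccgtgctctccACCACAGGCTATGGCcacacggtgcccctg
Kcnk1 (K2P, the second loop, chr8:126025314-126025358, plus strand): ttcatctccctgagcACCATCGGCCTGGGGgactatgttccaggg
Kcnn3 (SK, chr3:89645497-89645541, plus strand): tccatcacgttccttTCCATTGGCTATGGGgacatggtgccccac
Kcnma1 (BK, chr14:23528398-23528442, minus strand): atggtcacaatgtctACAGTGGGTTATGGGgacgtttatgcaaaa
Kcnt1 (sodium-activated, chr2:25894352-25894396, plus strand): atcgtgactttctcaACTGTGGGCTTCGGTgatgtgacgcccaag
The fourth capital codon was TAC or TAT in the Kv1, Kv3, Kv4, Kv5, SK and BK stretches shown and in the first loop of Kcnk1, TTC in Kcnh3 and Kcnt1, and CTG in the second loop of Kcnk1. Kcnf1 keeps the filter although it gives no current alone and acts as a partner of Kv2 subunits.

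Expression of the 78 members spanned from under 1 CPM to over 200 CPM. Means of 100 CPM or more were found for 12 members, of 10 to 100 CPM for 37, of 1 to 10 CPM for 25 and of under 1 CPM for 4. To compare genes, CPM was divided by exon length, and on this scale of CPM per kilobase the leading members were Kcnip2 at 57.8, Kcnj10 at 42.4, Kcnj4 at 37.3, Kcnab2 at 36.6, Kcna1 at 33.8, Kcnd2 at 28.5, Kcnip3 at 28, Kcnt1 at 26.4, Kcnk1 at 24.4 and Kcnab1 at 23.3. Of these 10 genes, 4 encode auxiliary subunits. As a share of the members' summed CPM per kilobase, auxiliary subunits took 25.9% ± 2.46 (SD, n = 38), Kir 19.3% ± 1.8, Kv1 13.1% ± 1.49, K2P 7.92% ± 0.535, Kv3 6.86% ± 1.1 and the EAG, ERG and ELK genes 6.44% ± 0.78. Kv4 took 6.07% ± 1.16, silent Kv genes 5.39% ± 0.866, sodium-activated channels with Slo3 4.35% ± 0.585, SK 1.44% ± 0.3 and BK 0.448% ± 0.155. By group, auxiliary subunits took 25.8% ± 2.36 in FC, 27.4% ± 3.5 in FS, 26.2% ± 1.36 in MC and 24.1% ± 1 in MS (SD).

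**Figure D1:**
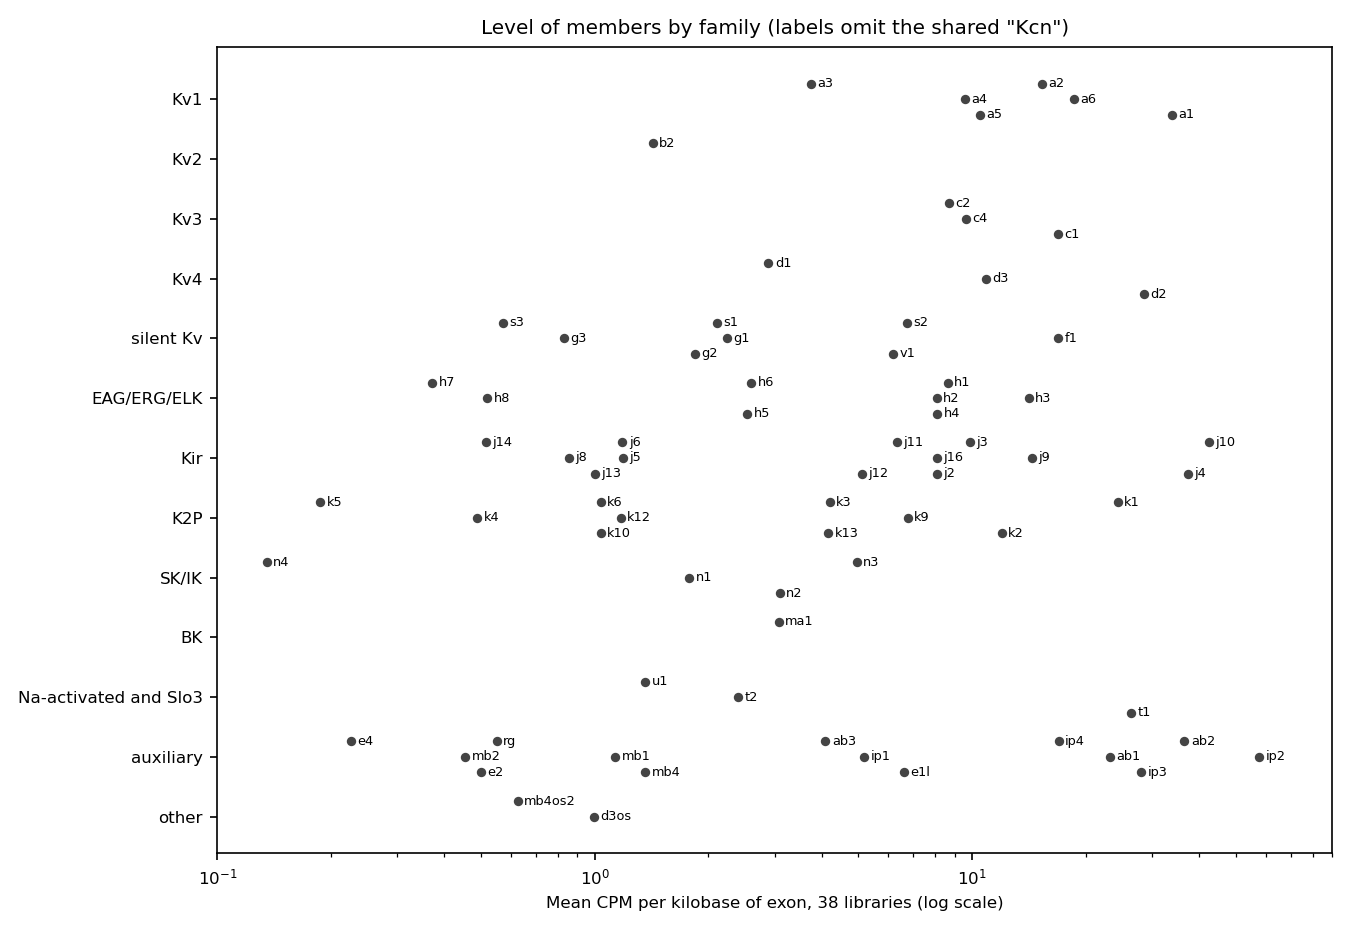
Mean level of 76 members over 38 libraries, in CPM per kilobase of exon on a log axis, grouped by family; each point is 1 gene, labelled without the shared Kcn. Kcnip2 at 57.8 and Kcnj10 at 42.4 lead, and the lowest member is Kcnn4 at 0.135.

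Among Kv1 genes, whose channels sit at axons and limit firing, Kcna1 led per kilobase at 33.8, followed by Kcna6 at 18.7, Kcna2 at 15.4, Kcna5 at 10.5, Kcna4 at 9.58 and Kcna3 at 3.74 CPM per kilobase. Kcna1 ran from 110 to 204 CPM (median 171) in FC, 107 to 207 (155) in FS, 93.6 to 253 (159) in MC and 106 to 241 (156) in MS. The ranges of the 4 groups overlapped. Kcna2 ran from 147 to 219 CPM (191) in FC, 128 to 224 (170) in FS, 107 to 251 (180) in MC and 155 to 232 (190) in MS, again with overlap throughout.

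Kcnb2, a Kv2 pore gene, averaged 1.43 CPM per kilobase. The silent Kv genes, which give current only in complexes with Kv2, were led by Kcnf1 at 16.9 CPM per kilobase, before Kcns2 at 6.71 and Kcnv1 at 6.17. In the Kv3 family, which repolarises fast-spiking neurons, Kcnc1 was at 16.9, Kcnc4 at 9.63 and Kcnc2 at 8.67 CPM per kilobase.

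Kv4 channels carry the A-type current that delays firing. Their pore genes stood at 28.5 (Kcnd2), 10.9 (Kcnd3) and 2.89 CPM per kilobase (Kcnd1), and the KChIP genes that encode their calcium-binding partners at 57.8 (Kcnip2), 28 (Kcnip3), 17 (Kcnip4) and 5.19 (Kcnip1). Kcnd2 ran from 104 to 201 CPM (median 139) in FC, 97.1 to 208 (137) in FS, 90 to 259 (137) in MC and 113 to 181 (151) in MS. The medians lay close together, and the libraries of each group spread far beyond them. In the ether-a-go-go group Kcnh3 led at 14.2, before Kcnh1 at 8.64, Kcnh4 at 8.09 and Kcnh2, the ERG1 gene, at 8.06 CPM per kilobase.

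Of the inward rectifiers, Kcnj10 (Kir4.1), the K+ buffering channel of astrocytes and oligodendrocytes, was highest with 42.4 CPM per kilobase, and its partner Kcnj16 (Kir5.1) stood at 8.06. Kcnj10 ran from 158 to 344 CPM (median 243) in FC, 158 to 339 (225) in FS, 127 to 356 (226) in MC and 158 to 283 (212) in MS. The classical rectifiers Kcnj4 (Kir2.3) and Kcnj2 (Kir2.1) were at 37.3 and 8.09. The G protein-gated GIRK genes were at 14.4 (Kcnj9), 9.86 (Kcnj3), 1.19 (Kcnj5) and 1.18 CPM per kilobase (Kcnj6). Kcnj11, the pore of neuronal KATP channels, was at 6.32, and Kcnj8, the KATP pore of pericytes and smooth muscle, at 0.853.

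Leak channels of the K2P family were led by Kcnk1 at 24.4, Kcnk2 (TREK-1) at 12 and Kcnk9 (TASK-3) at 6.76 CPM per kilobase. Among calcium-activated channels Kcnn3 stood at 4.95, Kcnn2 at 3.1, Kcnn1 at 1.78 and Kcnn4 at 0.135, and the BK pore gene Kcnma1 at 3.08. Kcnt1 (Slack), a sodium-activated channel that shapes the afterhyperpolarisation, was at 26.4 and had the lowest spread of any member, with a coefficient of variation of 10.8% over 38 libraries against a median of 29.4%. It ran from 228 to 293 CPM (median 244) in FC, 228 to 290 (259) in FS, 176 to 301 (245) in MC and 202 to 311 (248) in MS. Its relatives Kcnt2 and Kcnu1 (Slo3) were at 2.4 and 1.36 CPM per kilobase.

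**Figure D2:**
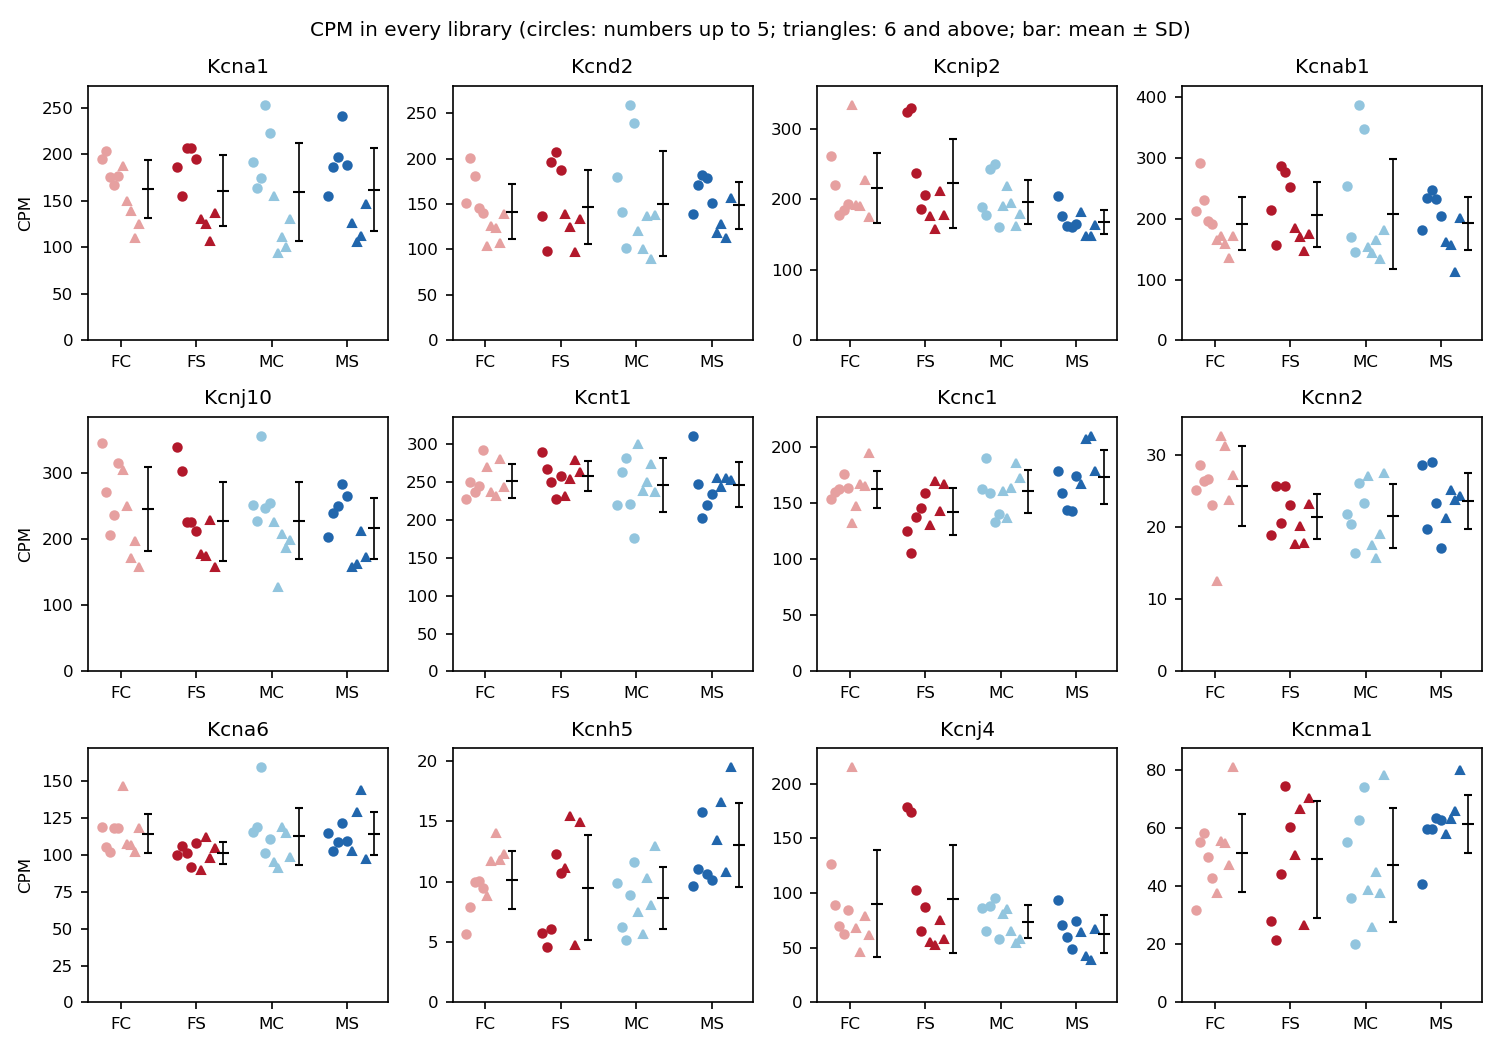
CPM of 12 members in each library, by group (FC n = 10, FS n = 9, MC n = 10, MS n = 9); circles are libraries numbered up to 5, triangles those numbered 6 and above, and the bar is the mean ± SD of the group. The groups overlap in every panel, as for Kcnt1, from 176 to 311 CPM over all libraries.

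Chronic stress in females (FS against FC) left no member past the test. With edgeR's quasi-likelihood test and Benjamini-Hochberg adjustment over all 16309 genes, 0 of 78 members passed an adjusted p of 0.05, as did 0% of all genes, and the smallest adjusted p of a member was 1. At an unadjusted p under 0.05 stood 3 members (3.85%, against 1.89% of all genes), all with lower fitted values in FS (0.957% of all genes). DESeq2 and limma voom passed 0 members as well. Fitted values were below 0 for 51 of 78 members (65.4%) and above 0 for 27 (34.6%), against 46.4% and 53.6% of all genes, with a median log2 change of -0.06 for members and 0.0098 for all genes. That median was -0.018 when the 5 libraries richest in myelin transcripts were left out and -0.034 without FC6 alone, and within the number sets it was -0.005 (up to 5) and -0.06 (6 and above).

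The members nearest the threshold in females were Kcnc1, Kcnn2 and Kcna6. Kcnc1, the Kv3.1 gene, ran from 132 to 195 CPM (median 163) in FC and 106 to 170 (143) in FS. FS libraries reached lower, and most of the ranges were shared. Its log2 change was -0.19 ± 0.089 (SE), adjusted p = 1, and it was -0.27 ± 0.12 among libraries numbered up to 5 and -0.08 ± 0.12 among the others. Kcnn2, the SK2 gene of the medium afterhyperpolarisation, had 12.6 to 32.7 CPM (26.6) in FC and 17.6 to 25.8 (20.7) in FS, with a log2 change of -0.26 ± 0.13. FC6 alone gave the 12.6 CPM, the next FC library was at 23.1 CPM, and 5 of the 9 FS libraries lay below that. Kcna6 had 102 to 147 CPM (113) in FC and 89.7 to 112 (101) in FS, with -0.18 ± 0.086. The positive values with the smallest p were 0.22 ± 0.13 for Kcnip4, 0.15 ± 0.13 for Kcnk2 and 0.36 ± 0.35 for the low Kcne4 (edgeR, adjusted p = 1 for each). Without FS1 the value of Kcnk2 was 0.052, and without FS8 that of Kcne4 was 0.07.

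By family, fitted values in females were below 0 for 8 of 10 K2P genes (median log2 -0.13), 4 of 4 Kv3 genes (-0.16), 10 of 13 Kir genes (-0.04), 6 of 8 silent Kv genes (-0.1) and 5 of 6 Kv1 genes (-0.06). They were above 0 for 11 of 14 auxiliary subunits (median 0.04). Over all genes 46.4% were below and 53.6% above 0. Below 0 as well were 5 of 8 EAG, ERG and ELK genes and 3 of 4 SK genes. Of the 3 sodium-activated and Slo3 genes, 1 was below 0. None of these members passed the test, and the standard errors had a median of 0.18. The precision reached was such that the 95% interval of the change lay within 2-fold for 72 of 78 members and within 1.5-fold for 59. In males 7 of 10 K2P, 9 of 13 Kir and 5 of 8 silent Kv genes were below 0 (55% of all genes). There 1 of 4 Kv3 and 2 of 6 Kv1 genes were below 0, and 5 of 14 auxiliary subunits were above it.

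Chronic stress in males (MS against MC) also passed 0 of 78 members (0% of all genes) by edgeR, DESeq2 and limma voom, with a smallest adjusted p of 0.863. At an unadjusted p under 0.05 stood 5 members (6.41%, against 4.02% of all genes), 3 higher and 2 lower (1.52% and 2.5% of all genes). The median log2 change was -0.01 for members and -0.02 for all genes, with 38 members above and 40 below 0 (45% and 55% of all genes). Within the number sets the members' median was -0.1 (up to 5) and 0.05 (6 and above). By exon length, the median change of all genes in males was -0.18 up to 1 kb, -0.06 from 3 to 4 kb and 0.11 above 8 kb.

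Kcnh5, an EAG-type Kv gene (Kv10.2), had 5.15 to 12.9 CPM (median 8.48) in MC and 9.68 to 19.5 (11) in MS. The lowest MS library lay above the MC median, and the upper part of MC was shared. Its log2 change was 0.59 ± 0.21 (SE; edgeR, adjusted p = 0.863), with 0.44 ± 0.27 among libraries numbered up to 5 and 0.76 ± 0.28 among the others. In females its values were 5.7 to 14.1 CPM (10) in FC and 4.63 to 15.4 (10.7) in FS, with no displacement of one range from the other.

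The negative values with the smallest p in stressed males were those of Kcnmb4, Kcnu1 and Kcnip2. Kcnmb4, the neuronal beta subunit of BK channels, had 3.06 to 6.18 CPM (median 4.65) in MC and 2.51 to 4.72 (3.66) in MS, with a log2 change of -0.34 ± 0.16. It was -0.57 ± 0.24 among libraries numbered up to 5 and -0.1 ± 0.18 among the others. Kcnmb4 shares 20.8% of its exon bases with the antisense gene Kcnmb4os2, and whether reads were counted by strand is not given in the sources used here. Kcnu1 had 4.79 to 6.76 CPM (5.34) in MC and 3.35 to 5.51 (4.81) in MS, with -0.27 ± 0.13, and Kcnip2 had 161 to 250 CPM (189) in MC and 148 to 204 (164) in MS, with -0.23 ± 0.13. MC and MS ranges overlapped for each of them (edgeR, adjusted p = 0.863).

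**Figure D3:**
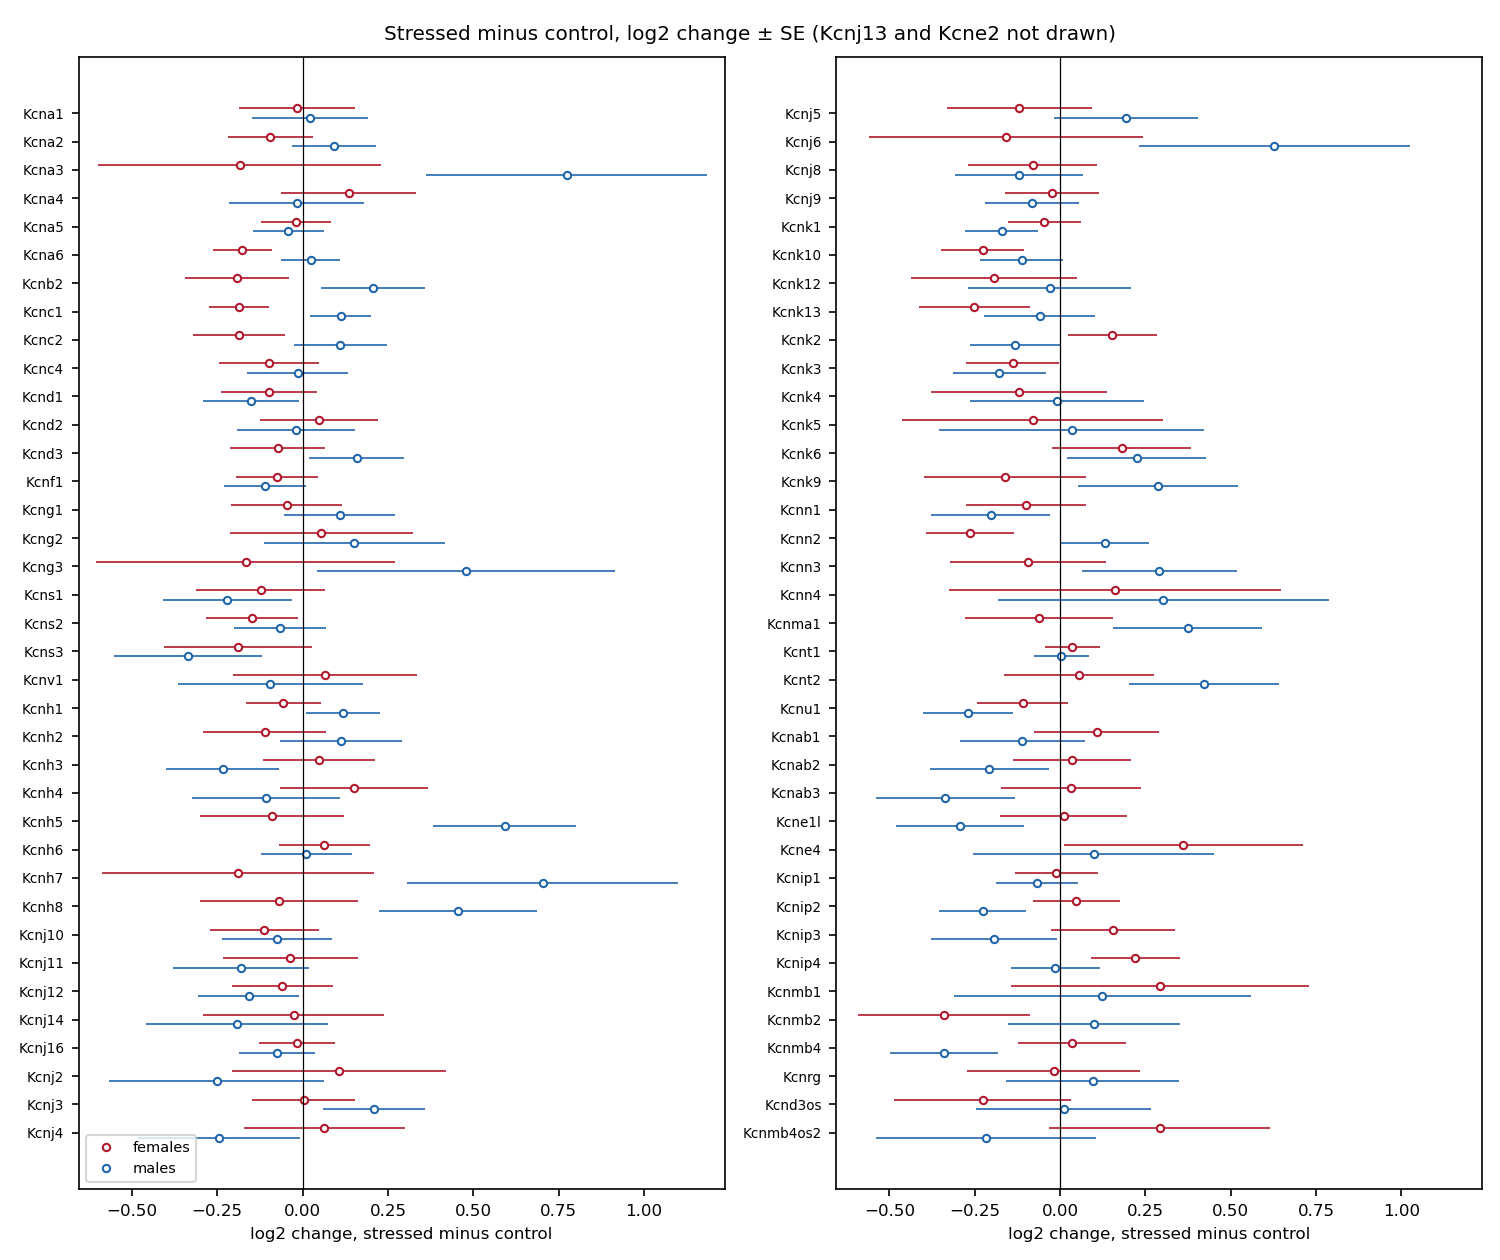
Fitted log2 change with stress (stressed minus control, ± SE) of members in females and in males, ordered by family; open circles did not pass an adjusted p of 0.05. All circles are open, and Kcnj13 (3.29 in males) and Kcne2 (1.99 in males) are left out to keep the scale.

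The difference of the stress change between the sexes, tested as the interaction term of the design, passed 0 of 78 members (0% of all genes) by edgeR, DESeq2 and limma voom, with a smallest adjusted p of 0.845. At an unadjusted p under 0.05 stood 5 members (6.41%, against 4.51% of all genes). Kcnc1 had an interaction of 0.3 ± 0.13 on the log2 scale, from -0.19 in females and 0.11 in males (medians of 162 CPM in MC and 174 in MS), and the value was 0.3 ± 0.17 in each number set. Over all genes the interaction varied with exon length, with a median of -0.25 up to 1 kb, -0.09 from 3 to 4 kb and 0.15 above 8 kb. Kcnc1 has 9.46 kb of exon, Kcnip2 3.48 kb and Kcnmb4 3.32 kb, and the part of length in their values was not tested. Kcnh5 had 0.68 ± 0.3. The negative values with the smallest p were those of Kcnmb4 at -0.37 ± 0.22, Kcnk2 at -0.29 ± 0.19 and Kcnip2 at -0.27 ± 0.18. Without FS1 those of Kcnmb4 and Kcnk2 were -0.21 and -0.17, and without FS2 that of Kcnip2 was -0.18. For Kcnk2 and Kcnip2 they were -0.57 ± 0.24 and -0.53 ± 0.23 in libraries numbered up to 5 but 0.12 ± 0.17 and 0.07 ± 0.22 in the others. The 95% interval lay within 2-fold for 60 members and within 1.5-fold for 25, so that for most members a sex difference in the stress change of 1.5-fold lay inside the interval.

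Averaged over the sexes, stress passed 0 of 78 members (0% of all genes) by edgeR, DESeq2 and limma voom, and 3 stood at an unadjusted p under 0.05 (3.85%, against 1.47% of all genes). Outside the choroid genes described below, the values with the smallest p in each direction were -0.19 ± 0.093 for Kcnu1, -0.17 ± 0.086 for the K2P gene Kcnk10, -0.26 ± 0.15 for the silent Kv gene Kcns3 and 0.25 ± 0.15 for Kcnh5. The 95% interval of the averaged change lay within 1.5-fold for 69 members.

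Between the sexes in control mice (MC against FC), 0 of 78 members passed by edgeR, DESeq2 and limma voom, against 0.0674% of all genes, and 3 stood at an unadjusted p under 0.05 (3.85%, against 4.16%). Kcnab3, a Kv beta subunit, had 4.73 to 15.6 CPM (median 9.66) in FC and 9.29 to 27.1 (13.2) in MC. MC libraries lay higher, and the ranges shared the values between. Its log2 difference was 0.57 ± 0.2 (edgeR, adjusted p = 0.798) and was alike in both number sets, 0.62 ± 0.21 and 0.51 ± 0.25. Kcnip1 had 25.2 to 38.2 CPM (28.3) in FC and 21.1 to 49.6 (36.1) in MC, with 0.3 ± 0.12 (adjusted p = 0.976). Further values were 0.2 ± 0.12 for Kcnf1, -0.26 ± 0.13 for Kcnn2, -0.43 ± 0.25 for Kcnmb2 and -0.16 ± 0.1 for Kcna5. The 2 X-linked members, Kcnd1 and Kcne1l, did not pass in any comparison of the sexes.

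In stressed mice (MS against FS) 1 member passed, Kcnj13, which was higher in males. In all, 0.0858% of genes passed and 0.0797% were higher. Kcnj13 is described with the choroid plexus markers below. At an unadjusted p under 0.05 stood 16 of 78 members (20.5%, against 11.1% of all genes), 7 higher and 9 lower in males (3.14% and 8% of all genes). Kcnc1 had 106 to 170 CPM (median 143) in FS and 143 to 210 (174) in MS, with a log2 difference of 0.28 ± 0.091 (edgeR, adjusted p = 0.378), 0.25 ± 0.12 and 0.33 ± 0.13 in the number sets. The lowest MS library was close to the FS median. Over all genes the difference of MS from FS had a median of -0.23 up to 1 kb of exon, -0.05 from 3 to 4 kb and 0.11 above 8 kb. The part of exon length in the members' values was not tested. Kcnip2 had 158 to 329 CPM (206) in FS and 148 to 204 (164) in MS, with -0.41 ± 0.13, and Kcnh3 had 60.3 to 154 CPM (83.9) and 52.1 to 92.9 (66.7), with -0.5 ± 0.17. In both genes the lowest MS libraries lay under the FS range, and the highest lay below several FS libraries. FS1 and FS2 were the highest, with 323 and 329 CPM of Kcnip2 and 127 and 154 CPM of Kcnh3. The next, FS3, held 237.5 and 96.4 CPM. FS1 and FS2 are among the 5 libraries richest in myelin transcripts. Kcnmb4 had -0.42 ± 0.16, with -0.72 ± 0.24 in those numbered up to 5 and -0.06 ± 0.19 in the rest (edgeR, adjusted p = 0.378 for Kcnip2, Kcnh3 and Kcnmb4). Without FS1, which held 9.03 CPM of Kcnmb4, the value was -0.26.

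Averaged over controls and stressed mice, the sex comparison passed 0 of 78 members by edgeR, DESeq2 and limma voom, against 0.215% of all genes, and 16 stood at an unadjusted p under 0.05 (20.5%, against 9.6%). Leaving out the 5 libraries richest in myelin transcripts, of which 4 are female, took that number from 16 to 5. Among the genes with the smallest p were Kcnip1 at 0.27 ± 0.086 (edgeR, adjusted p = 0.305), Kcnh3 at -0.36 ± 0.12 (0.307), Kcnip2 at -0.27 ± 0.09 (0.328) and Kcnj4 at -0.44 ± 0.17 (0.384). Kcnj4 had 46 to 216 CPM (median 74.2) in FC, 52.9 to 179 (75.7) in FS, 54.4 to 95.2 (73.4) in MC and 38.8 to 93.9 (64) in MS. The highest female libraries lay far above any male one while the medians were close. Summed striatal markers ran from 1010 to 3561 CPM in FC, 950 to 4099 in FS, 766 to 3218 in MC and 570 to 1902 in MS, and their part in the values of these genes was not tested.

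Kcnj13 (Kir7.1) and Kcne2, which work at the apical membrane of the choroid plexus epithelium, gave the largest fitted changes in stressed males. Kcnj13 lies on chr1:87386363-87394729 (GRCm38, minus strand), and 49.1% of its exon bases are shared with Gigyf2 on the opposite strand, a gene at 55.9 to 91.4 CPM in the libraries other than MS5 and 80.9 CPM in MS5. The promoter is shown because it is 1 of 4 among 82 RefSeq promoters of 59 members with the letters TATAAA on either strand (4.88%, against 13.6% of 32851 promoters), here in capitals 29 bases before the start (RefSeq, GRCm38.p6).
Kcnj13 promoter (chr1:87394680-87394979, minus strand): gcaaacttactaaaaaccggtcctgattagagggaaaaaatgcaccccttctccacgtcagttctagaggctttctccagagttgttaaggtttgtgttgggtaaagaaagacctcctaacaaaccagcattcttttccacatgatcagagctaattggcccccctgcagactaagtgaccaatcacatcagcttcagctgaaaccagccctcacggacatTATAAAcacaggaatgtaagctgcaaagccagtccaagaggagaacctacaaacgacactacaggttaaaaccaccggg
The other members with these letters were Kcnab1, Kcnj9 and Kcnj16. On either strand the full cAMP response element TGACGTCA was in 0 of the 82 promoters (1.79% of all), its core TGACG, which the full element contains, in 17 (20.7%, against 20.8% of all), and the palindromic glucocorticoid response element in 1, that of Kcna5 (1.22%, against 0.475%).

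Kcnj13 ran from 0 to 0.908 CPM (median 0.327) in FC, 0 to 0.758 (0.166) in FS, 0.229 to 0.766 (0.396) in MC and 0.146 to 34.5 (0.564) in MS. A single library, MS5, held the 34.5 CPM, from 775 counts against at most 29 in any other library. The log2 change with stress in males was 3.29 ± 0.78 (edgeR, adjusted p = 0.863), the interaction 3.68 ± 1.16, and the difference of MS from FS 3.97 ± 0.86 (adjusted p = 0.045), the only member value to pass among stress and sex comparisons. Without MS5 the same values were 0.25 for stress in males and 0.95 for MS against FS (adjusted p = 0.533), and the stress change averaged over the sexes went from 1.45 to -0.07. Without MS5 the mean of Kcnj13 was 0.38 CPM, under the level that made it a member, and that of Kcne2 0.505 CPM.

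Kcne2 showed the same library: 15 CPM in MS5 and at most 0.904 CPM in the other 37. Its log2 change with stress in males was 1.99 ± 0.58 (edgeR, adjusted p = 0.863), 3.02 ± 0.91 among libraries numbered up to 5, which include MS5, and -0.12 ± 0.5 among the others, and it was 0.06 without MS5. Of 10 choroid plexus markers 9 were highest in MS5, with Prlr the exception. Ttr, the transthyretin gene of that epithelium, was at 2878 CPM in MS5 and at most 41.1 CPM elsewhere, with 0 in some libraries, Kl at 139 against at most 15, and F5 at 51.8 against at most 2.81. The summed list ran from 48.9 to 151 CPM in FC, 48.7 to 147 in FS, 58.6 to 157 in MC and 103 to 3330 in MS. The sum of 7 fibroblast markers was highest in MS5 as well, at 377 CPM, of which Igf2 made up 231 CPM (at most 72 elsewhere), while Col1a1, Col1a2 and Dcn were highest in FC7.

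**Figure D4:**
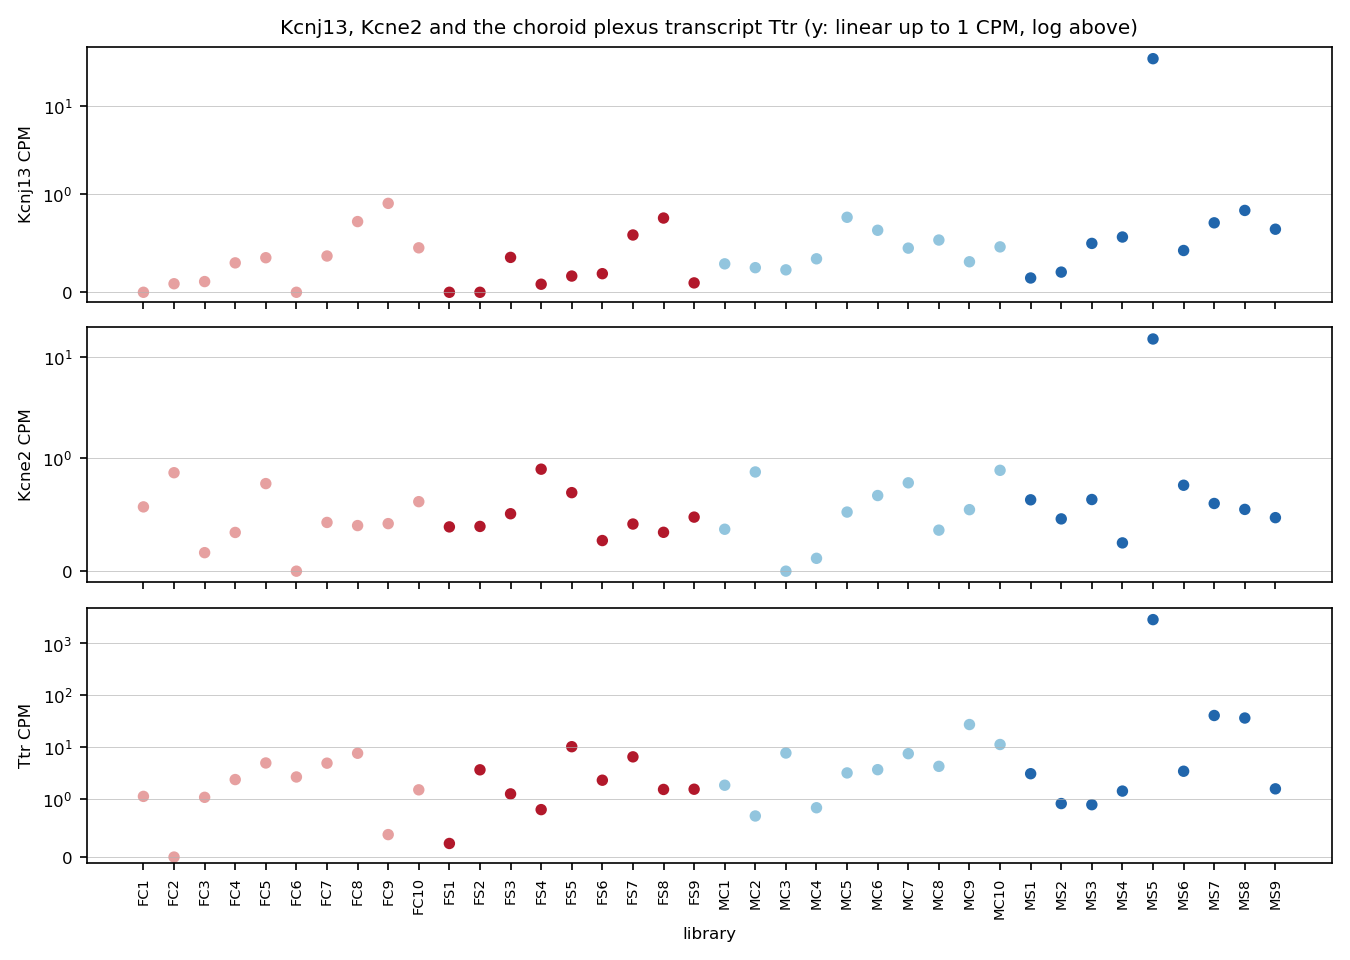
CPM of Kcnj13, Kcne2 and the choroid plexus transcript Ttr in each of the 38 libraries, coloured by group, on an axis that is linear up to 1 CPM and log above. MS5 stands above the other 37 libraries in all panels, at 34.5, 15 and 2878 CPM.

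More members differed between the number sets than between any of the groups. Libraries numbered 6 and above differed from those numbered up to 5 in 34 of 78 members (43.6%), against 45.5% of all genes (edgeR, adjusted p under 0.05), 16 higher and 18 lower (23.2% and 22.3% of all genes). The members' share was close to that of all genes, and the ranges of the 2 sets overlapped for every member. The overlap over all genes is not given here, so that whether this is particular to the members cannot be told. Within the number sets no stress or sex contrast passed any member.

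Members lower in libraries numbered 6 and above included 4 of the 6 Kv1 genes, against 22.3% of all genes. Kcna1 had 155 to 253 CPM (median 190) in those numbered up to 5 and 93.6 to 187 (126) in the rest, with a log2 difference of -0.6 ± 0.075 (edgeR, adjusted p = 6.718e-08). Kcna4 fell by 0.63 ± 0.099 on the log2 scale, Kcna2 by 0.39 ± 0.061, and the beta subunits Kcnab1 and Kcnab3 by 0.55 ± 0.096 and 0.51 ± 0.12. Kcnj2, the Kir2.1 gene, had 36.7 to 97.1 CPM (56.4) against 11.5 to 44 (27), the largest drop among the 78 members at -1.15 ± 0.13 (adjusted p = 1.908e-08). Lower as well were Kcnv1 (-0.88 ± 0.13), Kcnd2 (-0.47 ± 0.096), Kcnip4 (-0.37 ± 0.07), Kcnj10 (-0.46 ± 0.087), Kcnh4 (-0.55 ± 0.13) and the antisense Kcnmb4os2 (-0.82 ± 0.19).

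Members higher in libraries numbered 6 and above were led by Kcnmb1, the BK beta subunit best known from smooth muscle, with 0.82 to 4.32 CPM (median 2.28) in those numbered up to 5 and 1.65 to 12.3 (6.97) in the rest. Its log2 difference of 1.65 ± 0.18 was the largest rise among members (adjusted p = 5.196e-09). The GIRK genes Kcnj6, Kcnj5 and Kcnj9 rose by 1.02 ± 0.23, 0.41 ± 0.13 and 0.4 ± 0.073, and the fourth, Kcnj3, had medians of 51 and 54.5 CPM. Kcnn4 rose by 1.42 ± 0.28 from under 1 CPM, Kcna3 by 0.97 ± 0.25, Kcng2 by 0.79 ± 0.14, Kcnk12 by 0.71 ± 0.13, Kcnh2 by 0.55 ± 0.092, Kcnk9 by 0.43 ± 0.15, Kcnf1 by 0.29 ± 0.071 and Kcnh1 by 0.21 ± 0.069. The K2P family held 5 risers and 3 fallers among 10, Kv1 1 and 4 among 6, Kir 3 and 2 among 13, and Kv3 none among 4. Over all genes 23.2% rose and 22.3% fell, and no family was tested as a set. Kcnk9 did not pass without FC10 (0.37, adjusted p = 0.055), nor Kcnh1 without the 5 libraries richest in myelin transcripts (0.15, adjusted p = 0.0595).

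Cell type markers moved with the number sets. All 12 oligodendrocyte markers were lower in libraries numbered 6 and above, with a summed level of 9190 to 26330 CPM (median 12670) in those numbered up to 5 and 4749 to 24090 (5919) in the rest. All 8 striatal markers were lower, from 1300 to 4099 CPM (2048) to 570 to 3561 (1187). All 7 ependymal markers were higher, from 21.6 to 87.8 CPM (40.4) to 44 to 167 (107), and 5 of 6 septal markers were higher, from 102 to 210 CPM (150) to 104 to 343 (218). Of 8 pericyte and smooth muscle markers 4 were higher and 1 lower. The part of these cell types in the members' differences was not tested, and in tissue RNA fewer cells of a type and less RNA per cell cannot be told apart.

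**Figure D5:**
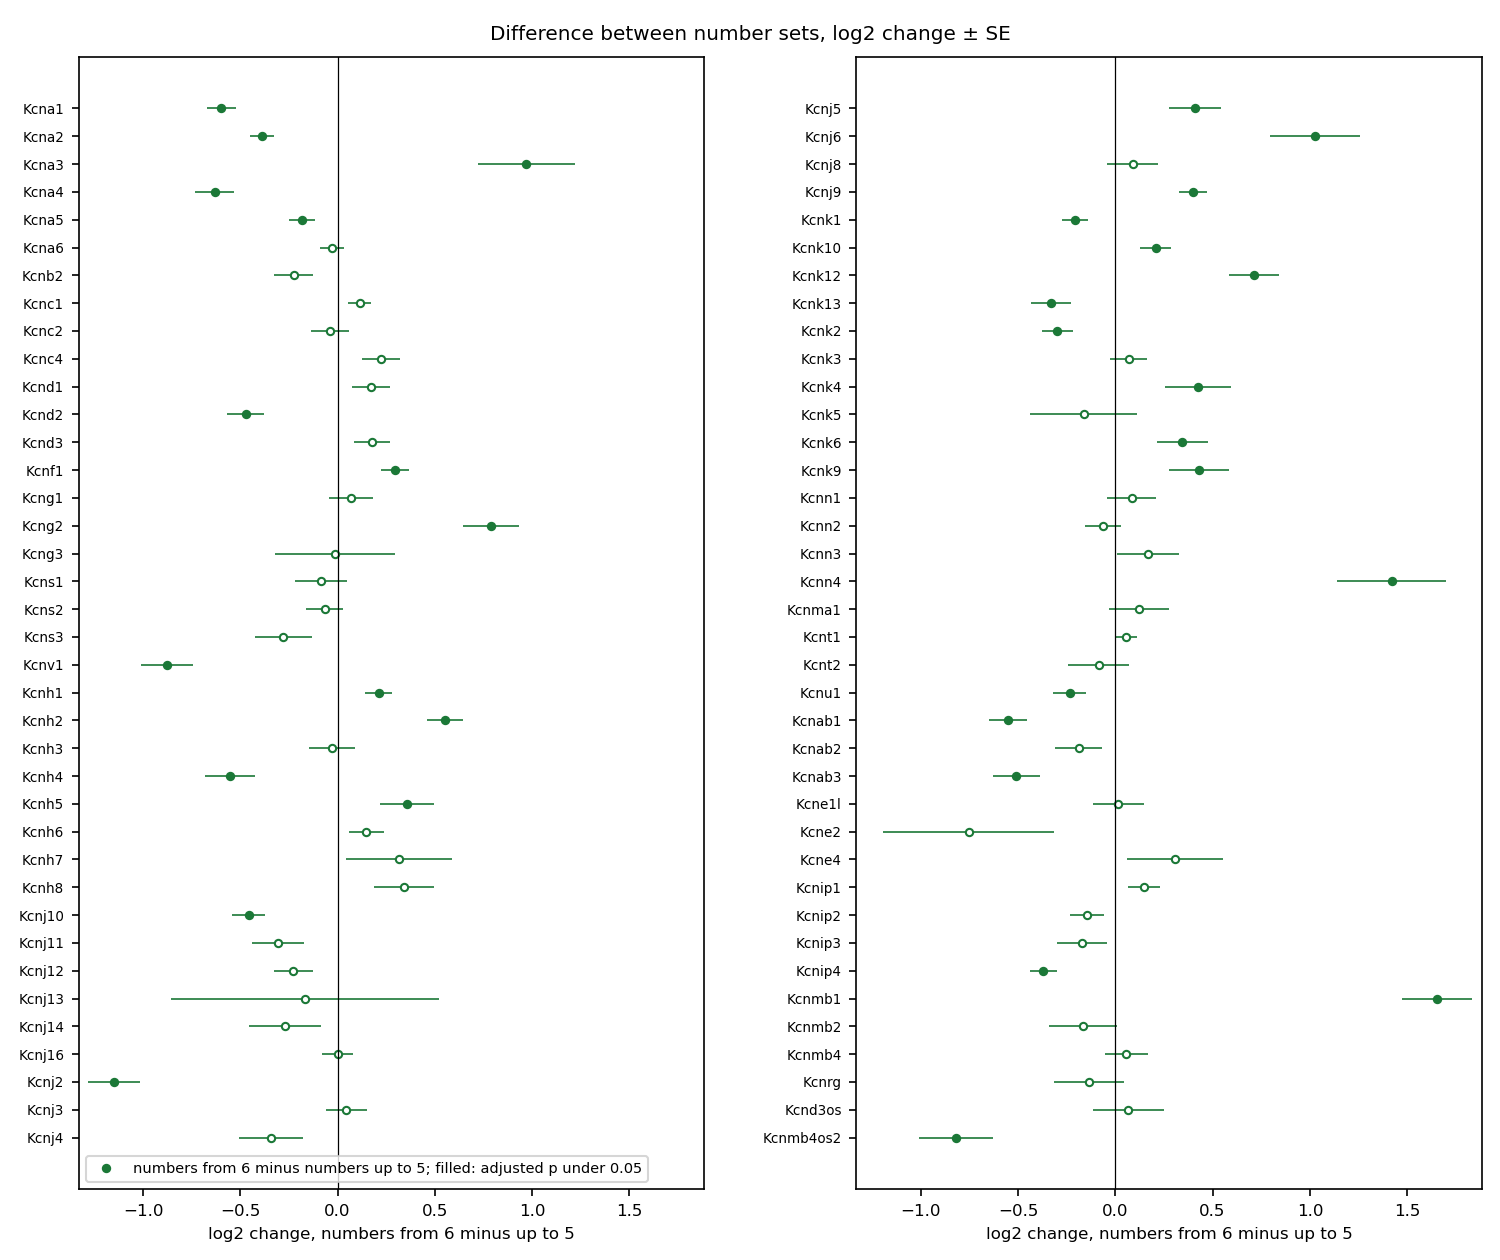
Fitted log2 difference of 76 members between libraries numbered 6 and above (n = 18) and up to 5 (n = 20), ± SE, ordered by family; filled circles passed an adjusted p of 0.05. Filled circles lie on both sides of 0, from Kcnj2 at -1.15 to Kcnmb1 at 1.65.

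Genes of channel complexes that do not carry the Kcn prefix were looked at as a separate list of 22, of which 21 were tested. It held the Kv4 partners Dpp6 and Dpp10, the Kv2 partner Amigo1 and the Kv1 complex proteins Cntnap2, Cntn2, Lgi1, Adam22 and Adam23. Also listed were the KATP receptors Abcc8 and Abcc9, the BK gamma subunits and the Kv2 junction proteins. For GIRK channels it held the G protein subunit genes Gnb1, Gnb2, Gng2, Gng3 and Gnb5, and Rgs7. None passed in any stress or sex comparison, where the list's median log2 change was 0.01 in females and -0.02 in males. Between the number sets 1 of the 21 rose and 9 fell, against 23.2% and 22.3% of all genes. Dpp6 rose by 0.23 ± 0.05. Of the Kv1 complex genes, Adam23 fell by 0.4 ± 0.054, Cntn2 by 0.3 ± 0.1, Lgi1 by 0.26 ± 0.064 and Adam22 by 0.16 ± 0.065, while Cntnap2 was at 0.005 ± 0.099. The fall was not particular to Kv1 complexes, as Gnb5 was at -0.34 ± 0.084 and Vapa at -0.33 ± 0.052.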

How the data were processed

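RNA of adBNST tissue was extracted, poly-A selected and made into TruSeq stranded libraries, per the labels' protocols. The deposited table holds raw read counts per gene symbol in 38 libraries. The submitters' processing notes name STAR, featureCounts, DESeq2 and the mm10 build, while for versions, annotation and strand setting the sources used here give nothing. The members, gene lists and tests were chosen with earlier results of these data known.

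From the counts, edgeR 4.0.16 (R 4.3.3) was run on genes kept by filterByExpr (minimum count 10, minimum total 15), with TMM scaling, 1 mean per group, the quasi-likelihood test and Benjamini-Hochberg adjustment over all 16309 genes tested. Printed CPM are TMM-scaled, while the threshold of 0.5 CPM used total counts. Errors of changes are standard errors, and other errors are SDs. The number-set contrast used group means plus a term for number set. Groups came from the labels, and columns were matched to libraries by the labels' short names, with 0 columns of other samples. Exon lengths came from GENCODE M21 and promoters from RefSeq (GRCm38.p6). Procedures were tested on simulated counts. No pair of libraries within a group agreed within sampling noise; pairs between groups were not compared.

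Named genes were, in each comparison, the members that passed (up to 12 a direction) or else the 3 with the smallest p in each direction, the 3 highest per kilobase of each family, the 3 on either side of the CPM threshold and a panel of 17 genes. Results of some named genes and 1 sequence are not reported here, and counts over the 78 members include them. Alternatives were DESeq2 1.42.0, limma 3.58.1 voom with quality weights, DESeq2 size factors, no low-count filter, a replicate block, a number-set term, and leaving out the 5 myelin-rich libraries or each library. The members' median biological coefficient of variation was 0.268, against 0.231 for all genes.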

Additional observations from a re-analysis of the deposited data

Results flagged for a closer look

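Within each group, the highest and lowest library of each named member was set against the rest of its group by Dixon's ratio. Of 240 groups tested, over 60 genes, 20 had a library that stood apart (8.33%). The ratio's nominal rate of about 1 in 20 holds for independent, normally spread values. Here many genes were named for their results in these same libraries, and many flags fell in the same few libraries. The share found can therefore not be set against that rate. The stressed male library MS5 stood apart for Kcnj13, at 34.52 CPM, and Kcne2, at 14.96 CPM.

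The female control library FC6 accounted for 7 of the 20. It was highest in its group for Kcna6 (146.6 CPM), Kcnd1 (23.2 CPM), Kcnh3 (172.2 CPM) and Kcnj4 (215.5 CPM), and lowest for Kcnj16 (16.36 CPM), Kcnk10 (4.888 CPM) and Kcnn2 (12.57 CPM). The male control library MC3 accounted for 5, highest in its group for Kcna6 (159.8 CPM), Kcnab2 (294.9 CPM), Kcnd1 (28.74 CPM), Kcnip3 (145.3 CPM) and Kcnn1 (15.0 CPM). The female stressed library FS1 was highest for Kcnk1 (81.78 CPM) and Kcnmb4 (9.025 CPM). FC6, MC3 and FS1 are among the 5 libraries richest in myelin transcripts.

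Single values stood apart for Kcne4 in FS8 (1.722 CPM), Kcnk5 in MC2 (1.591 CPM), Kcnt1 in MS1 (311.4 CPM) and Kcnu1 in FS2 (7.665 CPM), each the highest of its group.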

How the results depend on the processing

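The 1 member that passed between stressed males and females, Kcnj13, did not pass (0 members) under DESeq2 (0.93, adjusted p = 0.468), limma voom (1.82, 0.607), the number-set term (3.87, 0.0916) or without the 5 myelin-rich libraries (3.72, 0.22). Leaving out 1 library at a time gave 0 to 1 members, with 0 in 25 of 38 refits, and its log2 difference ran from 0.95 without MS5 to 4.35 without FS8 (adjusted p 0.0213 to 0.533). Averaged over the sexes, the stress change of Kcnj13 (1.45) was -0.098 under DESeq2, and with 1 library left out it ran from -0.067 without MS5 to 1.59 without FC9. Both DESeq2 values, 0.93 and -0.098, lay close to those without MS5. Whether DESeq2 replaced the outlying MS5 count was not looked at, so that it cannot be taken as a check separate from leaving MS5 out. In every other stress and sex comparison 0 members passed under every alternative run. Between the number sets 31 to 46 members passed under the alternatives and 30 to 39 in the 38 refits, against 34.

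Libraries of the same number in different groups had deviations correlated at 0.219 on average (40 of 55 pairs over 0.1; range -0.36 to 0.67), and at 0.02 once number-set means were removed; 7 of 36 libraries correlated best with their own number. The numbers were therefore not taken as pairs. With the replicate block, 0 members passed in every stress and sex comparison, and Kcnj13 was at 2.17 (adjusted p = 0.263) between stressed males and females. The number-set comparison was itself fitted with the number-set term, so that this term was no alternative there. The block was not run for it, because the replicate numbers define the sets.

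For the low members Kcne4 and Kcnn4, under 1 CPM, a level 2-fold higher with stress lay inside the 95% interval in females.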
